A study of Homo sapiens with 6 samples.

Results

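The genes described here are 43 genes of DNA repair, chosen by name, with earlier results of these data known, out of 55765 gene symbols in the count tables. They encode proteins of homologous recombination, the Fanconi anemia pathway, mismatch repair, end joining, damage signalling and poly(ADP-ribose) synthesis. RNA sequencing was performed on C4-2 cells, a castration-resistant subline of the prostate cancer cell line LNCaP. The 3 control cultures received the solvent DMSO, and the other 3 received R1881, a stable synthetic androgen, at 1 nM, a supraphysiological androgen level (SAL). The cells were grown in serum-containing medium and both groups were treated for 72 h, and the libraries of each group are numbered 1 to 3. The study's methods describe 3 independent experiments and a paired test, so libraries with the same number were compared as pairs. C4-2 is 1 cell line, and the results describe this line only.

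Double-strand breaks can be repaired in several ways. In homologous recombination, the broken end is cut back to a single strand, BRCA1 with its partner BARD1 and BRCA2 with PALB2 prepare that strand for exchange, and an intact sister chromatid serves as the template, which limits the process to the S and G2 phases of the cell cycle. Classical end joining ligates the ends directly and works throughout the cycle. The Fanconi anemia pathway removes crosslinks between DNA strands, and its core complex attaches ubiquitin to the FANCD2-FANCI pair. Mutations of several of these genes occur in advanced prostate cancer, where they are used to choose patients for PARP inhibitors.

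After removal of rRNA genes the libraries held between 6931042 and 9776990 gene counts. Reads in no gene made up 24.0% (SAL replicate 2) to 48.3% (DMSO replicate 3) of all gene counts, rRNA included, plus the tallies of unassigned reads. The androgen-induced genes KLK2, KLK3, TMPRSS2 and FKBP5, used to check the labels, were called higher in SAL. Each of the 9 luminal prostate markers had at least 10 counts in every library, whereas the 3 basal markers summed to at most 3 counts per library, the 3 leukocyte markers to at most 4 and the 4 stromal markers to between 19 and 89. Most of the stromal counts were those of COL1A1 (14 to 88 per library). The endothelial marker VWF had 4 to 35 counts, and PECAM1 was absent from the count tables. Each of the 43 repair genes passed the filter on low counts, with the lowest count of 18 for FANCE in SAL replicate 1 and the highest of 17468 for PRKDC in DMSO replicate 3.

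Repair genes were lower in SAL as a group, but not uniformly. In SAL, 27 of the 43 genes were called lower and 0 were called higher (edgeR's quasi-likelihood test with the replicate number as a block, Benjamini-Hochberg adjusted p under 0.05). No gene had a higher level at an unadjusted p under 0.05 either. Among all 16835 genes tested, 9.37% were called lower and 11.5% higher. The median log2 fold change was -0.51 over the 43 genes and -0.0011 over all genes. All but 2 of the fitted log2 fold changes were below 0, and they ranged from -1.55 for BARD1 to 0.23 for MUS81. In the 3 pairs the median difference in log2 CPM (counts scaled to a common library size by the TMM method) was -0.49, -0.46 and -0.55, with 38, 39 and 41 of the 43 genes lower in SAL. A decrease in all 3 pairs was found for 34 of the 43 genes, against 25.3% of all genes.

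**Figure D1:**
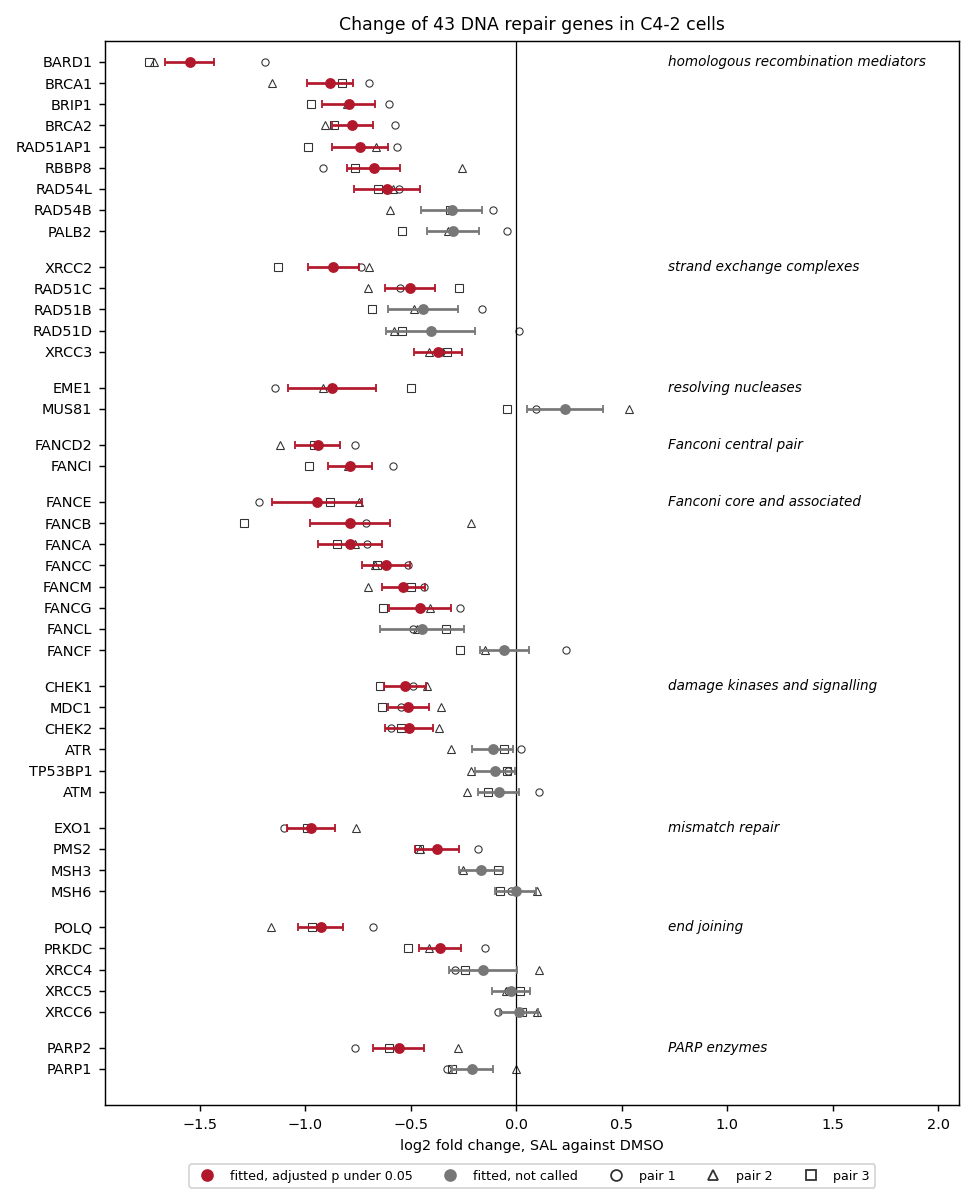
The x axis gives the log2 fold change of SAL against DMSO for each of the 43 genes, grouped by role. Filled points are fitted values with their standard error, red where the gene was called lower (27 genes) and gray where it was not called, and the open symbols are the differences of the 3 pairs. BARD1 lies at -1.55, while XRCC5, XRCC6 and MSH6 lie close to 0.

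The replicate number had a larger part in the levels than the treatment. It accounted for a median of 80.7% of the sum of squares of a repair gene's log2 levels, and the treatment for 17.6%, compared with 85.4% and 5.87% over all genes tested. In 28 of the 43 genes, replicate 2 had the lowest level in both groups, which was the case for 32.0% of all genes. Replicate 1 was the lowest in both groups in 10 of the 43, against 37.3% of all genes. Replicate 2 was also the number with the smallest share of reads outside genes, 30.1% in DMSO and 24.0% in SAL, and the part of this in the levels was not tested. As a result, the ranges of the groups mostly overlapped. For BARD1, FANCA and FANCC, 3 of the 43 genes, every SAL library was below every DMSO library, against 3.73% of all genes. The calls therefore rest on the comparison within pairs. Without the replicate block, none of the 43 genes was called (edgeR, smallest adjusted p = 0.727, with 1 gene at an unadjusted p under 0.05), and 0.0178% of all genes were called lower, while the median log2 fold change was -0.50. DESeq2 with the block called 22 of the 43 lower and none higher, against 5.23% of all genes called lower.

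**Figure D2:**
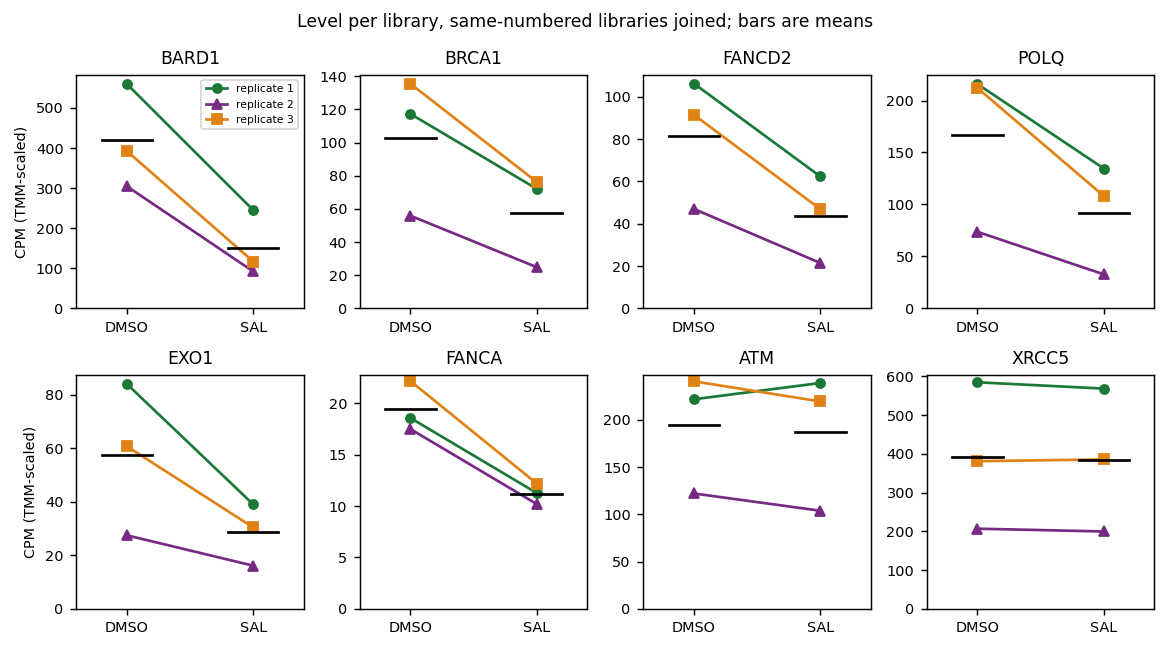
The y axes give the level in CPM (TMM-scaled) of 8 genes in each library, lines join libraries with the same replicate number, and horizontal bars are the means of 3 libraries. All 3 lines fall from DMSO to SAL for BARD1, BRCA1, FANCD2, POLQ, EXO1 and FANCA, whereas those of ATM and XRCC5 stay near their starting level, and replicate 2 is the lowest in both groups in each of the 8 panels.

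Within homologous recombination, 7 of the 9 mediators were called lower. BARD1, the partner that BRCA1 needs for its ubiquitin ligase activity, lies on chromosome 2 (GRCh37, 215590370 to 215674407, minus strand) and had the largest decrease of all 43 genes. Its level was 560.0, 305 and 393 CPM in DMSO replicates 1, 2 and 3 and 245, 92.3 and 117 CPM in the SAL replicates, so that the SAL mean was 36.2% of the DMSO mean. This is a log2 fold change of -1.55 (standard error 0.11, edgeR adjusted p = 2.40e-07), with -1.19, -1.72 and -1.74 in the 3 pairs. The groups did not overlap. BRCA1 measured 117, 55.9 and 135 CPM in DMSO and 72.1, 24.9 and 76.3 CPM in SAL. The pairs differed by -0.70, -1.16 and -0.83, with a fitted log2 fold change of -0.88 (standard error 0.11, edgeR adjusted p = 2.49e-05), and the DMSO library of replicate 2 lay below the SAL libraries of the other two replicates. BRCA2, which acts on single-stranded DNA at the break, measured 447, 115 and 384 CPM in DMSO and 300, 61.3 and 211 CPM in SAL. Each pair was lower, by -0.58, -0.91 and -0.86, and the fitted value was -0.78 (standard error 0.10, edgeR adjusted p = 3.59e-05). The helicase gene BRIP1, the strand exchange cofactor RAD51AP1, the end resection factor RBBP8 (CtIP) and the translocase RAD54L were also called lower, with log2 fold changes of -0.80, -0.74, -0.68 and -0.61. PALB2, which bridges BRCA1 and BRCA2, was fitted at -0.30 (standard error 0.12, edgeR adjusted p = 0.101) and RAD54B, a second translocase, of -0.31 (standard error 0.14, edgeR adjusted p = 0.154), and neither was called.

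XRCC2, XRCC3, RAD51B, RAD51C and RAD51D encode subunits of small complexes that act in recombination, and 3 of these 5 genes were called lower. XRCC2 measured 81.4, 20.8 and 56.9 CPM in DMSO and 48.8, 12.7 and 25.9 CPM in SAL, a log2 fold change of -0.87 (standard error 0.12, edgeR adjusted p = 9.75e-05). RAD51C measured 77.8, 25.2 and 36.5 CPM in DMSO and 53.02, 15.3 and 30.2 CPM in SAL, with a log2 fold change of -0.51 (standard error 0.12, edgeR adjusted p = 0.00651). XRCC3 had the smallest change among the called genes of these complexes, -0.37 (standard error 0.12, edgeR adjusted p = 0.0321), with 23.0, 48.1 and 39.6 CPM in DMSO and 17.9, 36.1 and 31.4 CPM in SAL. All of these were lower in each pair, by -0.74, -0.70 and -1.13 for XRCC2, -0.55, -0.70 and -0.27 for RAD51C, and -0.36, -0.41 and -0.33 for XRCC3, although the groups overlapped. RAD51B and RAD51D had similar fitted values, -0.44 and -0.41, with larger standard errors of 0.17 and 0.21, and were not called.

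The resolving nuclease MUS81 and its partner EME1, which cut joint molecules that recombination leaves behind, did not change alike. EME1 fell from 13.6, 6.84 and 10.6 CPM in DMSO to 6.02, 3.51 and 7.39 CPM in SAL, a log2 fold change of -0.88 (standard error 0.21, edgeR adjusted p = 0.00699) with pair differences of -1.15, -0.91 and -0.50. MUS81 measured 7.06, 15.6 and 10.3 CPM in DMSO and 7.56, 22.7 and 9.98 CPM in SAL. Its log2 fold change was 0.23 (standard error 0.18, edgeR adjusted p = 0.414), the highest of the 43 genes, and rests mainly on replicate 2, where the difference was 0.53. The difference between the genes was not tested.

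Both genes of the Fanconi central pair were called lower. FANCD2 measured 106, 47.0 and 91.5 CPM in DMSO and 62.4, 21.5 and 46.9 CPM in SAL, a log2 fold change of -0.94 (standard error 0.11, edgeR adjusted p = 1.16e-05). FANCI, which is ubiquitinated together with FANCD2 and clamps with it onto DNA, measured 187, 54.3 and 171 CPM in DMSO and 125, 31.1 and 86.2 CPM in SAL. The log2 fold change of FANCI was -0.79 (standard error 0.10, edgeR adjusted p = 5.58e-05). In both genes the level of DMSO replicate 2 was below that of SAL replicate 1, and the decrease was seen in each pair, with -0.77, -1.12 and -0.96 for FANCD2 and -0.58, -0.80 and -0.98 for FANCI.

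Of the 8 genes of the Fanconi core complex and its anchor, 6 were called lower. FANCC had one of the steadiest changes, from 40.4, 39.2 and 46.5 CPM in DMSO to 28.2, 24.6 and 29.3 CPM in SAL, without overlap of the groups (log2 fold change -0.62, standard error 0.11, edgeR adjusted p = 0.00105). FANCA was equally steady, with 18.6, 17.5 and 22.2 CPM in DMSO and 11.3, 10.2 and 12.2 CPM in SAL, a log2 fold change of -0.79 (standard error 0.15, edgeR adjusted p = 0.00163). The groups of FANCA did not overlap either. The pair differences were -0.52, -0.67 and -0.66 for FANCC and -0.71, -0.76 and -0.85 for FANCA. FANCM, the DNA translocase that anchors the core complex to chromatin, measured 103, 31.4 and 88.5 CPM in DMSO and 75.9, 19.2 and 62.5 CPM in SAL, a log2 fold change of -0.54 (standard error 0.10, edgeR adjusted p = 0.00150) with -0.44, -0.71 and -0.50 in the pairs. FANCE, FANCB and FANCG, further subunits of the core complex, were called at -0.94, -0.79 and -0.46. Of the 43 genes FANCB differed most between the pairs, by -0.71, -0.22 and -1.29. FANCL, the ubiquitin ligase subunit, was at -0.45 with a standard error of 0.20 and was not called (edgeR adjusted p = 0.129), although each pair was lower. FANCF, the adaptor of the core complex, was the exception in this group. It measured 46.8, 59.1 and 43.03 CPM in DMSO and 55.2, 53.2 and 35.7 CPM in SAL, higher in the first pair and lower in the others (log2 fold change -0.06, standard error 0.12).

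Of the 6 genes of damage signalling, CHEK1, CHEK2 and MDC1 were called lower, and ATM, ATR and TP53BP1 were not called. The checkpoint kinase CHEK1 measured 121, 35.4 and 90.6 CPM in DMSO and 86.3, 26.3 and 57.8 CPM in SAL, a log2 fold change of -0.53 (standard error 0.10, edgeR adjusted p = 0.00130). CHEK2, the kinase that ATM activates, measured 56.6, 37.6 and 34.9 CPM in DMSO and 37.4, 29.1 and 23.8 CPM in SAL, with a log2 fold change of -0.51 (standard error 0.11, edgeR adjusted p = 0.00450). MDC1, the scaffold that binds phosphorylated histone H2AX, measured 90.9, 200 and 202 CPM in DMSO and 62.1, 156 and 130 CPM in SAL, with a log2 fold change of -0.51 (standard error 0.10, edgeR adjusted p = 0.00128). In the pairs the differences were -0.49, -0.43 and -0.65 for CHEK1, -0.60, -0.37 and -0.55 for CHEK2, and -0.55, -0.36 and -0.64 for MDC1, and the groups overlapped in each of these genes. The apical kinase genes ATM and ATR had log2 fold changes of -0.08 and -0.11, with a standard error of 0.10 each, and were not called (edgeR adjusted p = 0.601 and 0.470). ATM measured 222, 122 and 241 CPM in DMSO and 239, 104 and 220 CPM in SAL. TP53BP1, which favors end joining over resection, was at -0.10 (standard error 0.10, edgeR adjusted p = 0.513).

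In mismatch repair, EXO1 and PMS2 were called lower and MSH3 and MSH6 were not. EXO1, an exonuclease that acts in mismatch repair and in the resection of breaks, measured 84.1, 27.5 and 60.8 CPM in DMSO and 39.1, 16.1 and 30.4 CPM in SAL, so that its SAL mean was 49.7% of the DMSO mean. The log2 fold change was -0.97 (standard error 0.11, edgeR adjusted p = 1.73e-05), with -1.10, -0.76 and -0.99 in the pairs. PMS2, the endonuclease subunit, measured 40.3, 91.5 and 73.5 CPM in DMSO and 35.5, 66.6 and 53.3 CPM in SAL, a log2 fold change of -0.38 (standard error 0.10, edgeR adjusted p = 0.0169) with -0.18, -0.46 and -0.46 in the pairs. The genes of the mismatch-binding subunits were closer to 0, with -0.17 for MSH3 (standard error 0.10) and -0.0040 for MSH6 (standard error 0.10). PMS2 has many near-identical copies in the genome, of which PMS2CL reached 132 counts in a library, so its level is uncertain. The same holds for XRCC6 and PARP1, whose copies XRCC6P2 and PARP1P1 reached 934 and 162 counts.

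Of the 5 end joining genes, POLQ and PRKDC were called lower, and XRCC4, XRCC5 and XRCC6 were not called. POLQ, the polymerase of the alternative, microhomology-mediated route, measured 216, 73.7 and 212 CPM in DMSO and 135, 32.8 and 108 CPM in SAL. Its log2 fold change was -0.93 (standard error 0.11, edgeR adjusted p = 1.48e-05), with -0.68, -1.16 and -0.97 in the pairs. Among the genes of the classical route, PRKDC, the catalytic subunit of the DNA-dependent protein kinase, measured 596, 2041 and 2334 CPM in DMSO and 537, 1531 and 1634 CPM in SAL, a log2 fold change of -0.36 (standard error 0.10, edgeR adjusted p = 0.0180) with -0.15, -0.42 and -0.51 in the pairs. The Ku subunit genes XRCC5 and XRCC6, which bind the broken ends, had log2 fold changes of -0.02 and 0.01 with standard errors of 0.09 each. XRCC5 measured 585, 207 and 381 CPM in DMSO and 568, 200 and 386 CPM in SAL, so that each pair was nearly level while the replicates differed widely. XRCC4, the ligase cofactor, was at -0.16 (standard error 0.16, edgeR adjusted p = 0.541).

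The PARP enzymes detect strand breaks and mark them with poly(ADP-ribose). PARP2 fell from 62.2, 36.0 and 38.9 CPM in DMSO to 36.5, 29.6 and 25.5 CPM in SAL, a log2 fold change of -0.56 (standard error 0.12, edgeR adjusted p = 0.00380). PARP1, the main enzyme of the family, was at -0.21 (standard error 0.10, edgeR adjusted p = 0.157), with -0.33, -0.00016 and -0.31 in the pairs. The pair differences of PARP2 were -0.76, -0.28 and -0.60, so that the second pair had the smallest difference in both genes.

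Compared between genes as CPM per kilobase of the canonical transcript, averaged over the 6 libraries, the highest levels were those of XRCC6 (180), XRCC5 (115), PRKDC (107), PARP1 (54.4) and BARD1 (52.1). The next level, that of FANCI, was 23.1. Among these top genes, XRCC6, XRCC5 and PARP1 were not called, PRKDC was at -0.36 and BARD1 at -1.55, so that a high level did not go with a common change.

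**Figure D3:**
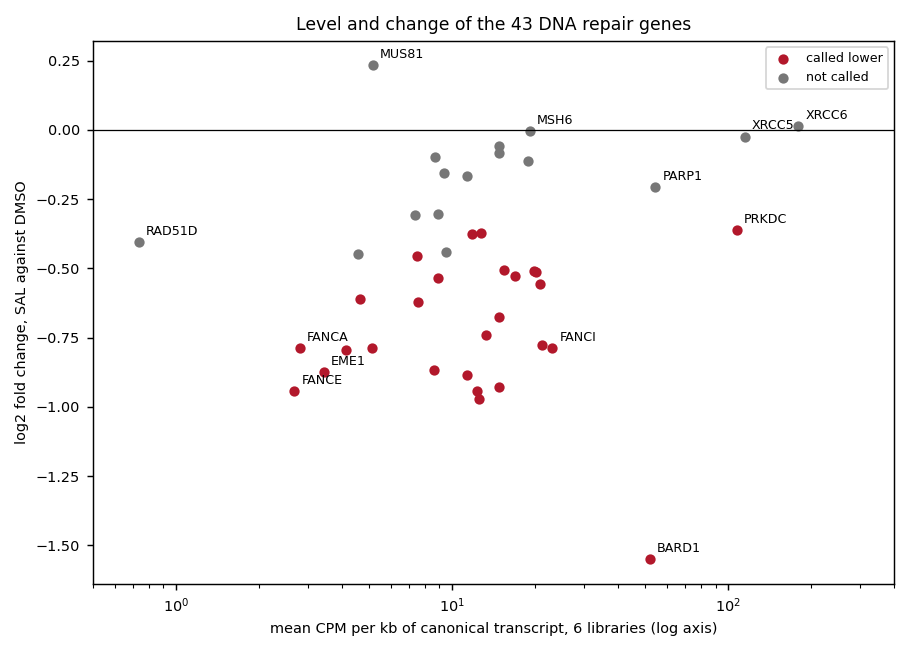
The x axis (log scale) gives the mean CPM per kilobase of canonical transcript over 6 libraries, and the y axis the log2 fold change of SAL against DMSO, for each of the 43 genes. Red points were called lower and gray points were not called. BARD1 has both a high level and the largest decrease, and called genes are found from 2.68 (FANCE) to 107 CPM per kilobase (PRKDC).

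The genes called lower have no common promoter motif among those searched. RefSeq promoter windows (250 bases before and 50 after the annotated start, GRCh38.p14) were given for 39 of the 43 genes, some with several windows. At least 1 of the E2F-type octamers TTTCCCGC, TTTGGCGC and TTTCGCGC, the sites of cell cycle factors of the E2F family, was found on either strand for 7 of the 39 genes (17.9%), compared with 5.5% of the 9686 tested genes that had a window and 2.7% of all windows. These were 4 of the 25 genes called lower and 3 of the 14 others. The CCAAT box was found for 11 of the 25 and 8 of the 14, against 43.7% of the tested genes, and the CHR element TTTGAA for 4 of the 25 and 1 of the 14, against 13.7%. Shown are the promoters of the 4 called genes with the smallest adjusted p, from 150 bases before the start to 30 after it, 5′ to 3′ on the strand of the gene, with matches in capitals. They lie at chr2:214809654-214809833 (BARD1, minus strand), chr3:10026287-10026466 (FANCD2, plus strand), chr3:121545959-121546138 (POLQ, minus strand) and chr1:241848054-241848233 (EXO1, plus strand, the first of its 2 windows).
BARD1: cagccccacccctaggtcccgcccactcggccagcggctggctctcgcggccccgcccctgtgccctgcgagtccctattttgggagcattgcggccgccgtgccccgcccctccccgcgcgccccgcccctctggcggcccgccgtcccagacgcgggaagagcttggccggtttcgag
FANCD2: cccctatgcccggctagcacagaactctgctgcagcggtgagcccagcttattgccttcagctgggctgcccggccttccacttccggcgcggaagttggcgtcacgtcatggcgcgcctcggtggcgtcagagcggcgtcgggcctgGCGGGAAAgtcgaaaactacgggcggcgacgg
POLQ: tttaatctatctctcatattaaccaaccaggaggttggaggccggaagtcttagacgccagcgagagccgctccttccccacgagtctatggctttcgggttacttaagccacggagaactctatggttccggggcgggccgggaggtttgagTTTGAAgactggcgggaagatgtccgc
EXO1: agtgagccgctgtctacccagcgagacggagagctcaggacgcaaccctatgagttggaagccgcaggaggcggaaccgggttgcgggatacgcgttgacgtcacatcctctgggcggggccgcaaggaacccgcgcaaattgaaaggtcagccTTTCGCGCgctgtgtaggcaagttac
The capitals are an E2F-type octamer in FANCD2 (on the opposite strand) and in EXO1, and a CHR element in POLQ. BARD1, the gene with the largest decrease, has no match in this stretch. A match describes the letters only, and binding was not measured.

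Other repair genes were taken from 4 companion lists. Of the 83 listed, 81 were tested, and 18 were called lower and 4 higher (22.2% lower, against 9.37% of all genes called lower and 11.5% higher). Without replicate 3 the counts were 5 lower and 1 higher, and without the replicate block 0 and 0 (edgeR). For crosslink repair and recombination, 10 of the 29 genes were called lower and 2 higher, and the median was -0.16. The helicase BLM, the replication-coupled recombination factor MMS22L and the BLM partner RMI1 had the smallest adjusted p among the decreases, with log2 fold changes of -0.89, -0.62 and -0.54. SHFM1, which encodes the BRCA2-binding protein DSS1, and STRA13, a histone-fold protein of the FANCM complex, were the 2 called higher, at 0.61 and 0.59 (edgeR adjusted p = 0.00205 and 0.00947). SHFM1 was higher in SAL in all 3 pairs, whereas BRCA2 itself was lower in all 3. For checkpoint and chromatin signalling, 5 of the 22 genes were called lower, among them WEE1 (-0.68), TOPBP1 (-0.41) and H2AFX (-0.62), which encodes the histone that MDC1 binds, and BABAM1, of the BRCA1-A complex, was called higher at 0.56. In end joining, 2 of the 7 genes (NHEJ1 and APLF) were too low to be tested. LIG4, the ligase that joins the ends together with XRCC4, was called higher at 0.48 (standard error 0.11, edgeR adjusted p = 0.00474), and the nuclease DCLRE1C (Artemis) lower at -0.38 (edgeR adjusted p = 0.0493).

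Excision repair, which corrects damaged bases and bulky adducts, was called lower in only 2 of 25 listed genes, a share near that of all genes (9.37%), and the median log2 fold change was -0.02. These were DDB2, a sensor of ultraviolet damage, and the glycosylase NEIL3, with log2 fold changes of -1.01 and -0.86 (edgeR adjusted p = 0.000525 and 0.000609). DDB2 measured 21.4 ± 2.82 CPM in DMSO and 10.6 ± 1.42 CPM in SAL (SD, n = 3). The number called higher was 0, with 1 gene higher at an unadjusted p under 0.05 (edgeR). Whether the lists differ was not tested.

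**Figure D4:**
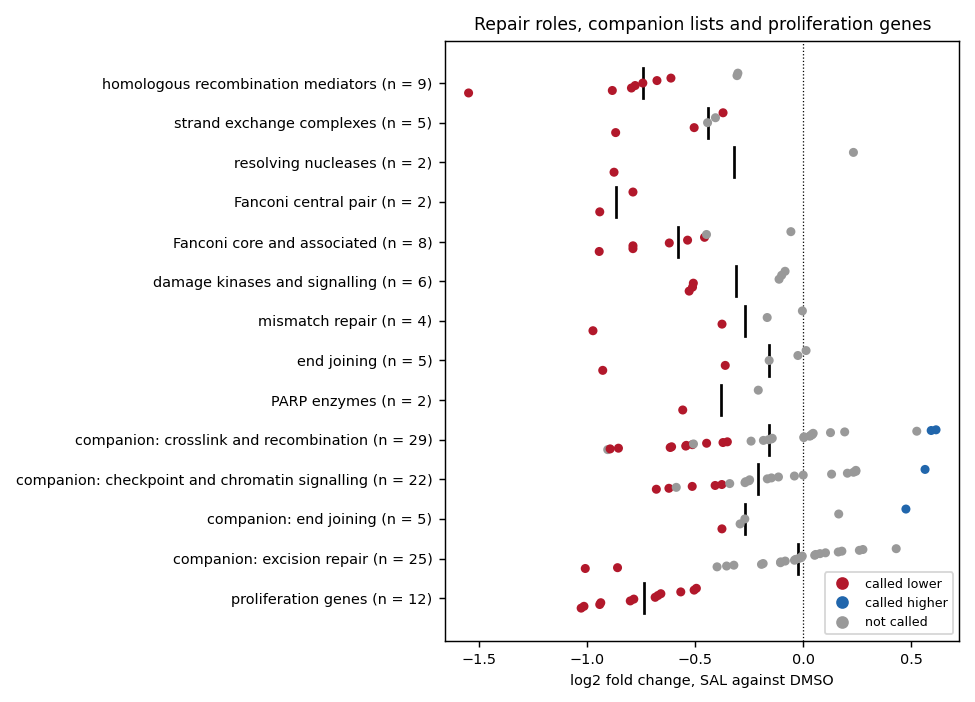
The x axis gives the log2 fold change of SAL against DMSO, each point is a gene of the role or list named at the left with the number tested, and black bars are medians. Red points were called lower, blue points higher and gray points were not called, and the dotted line is the median of all genes (-0.0011). The 12 proliferation genes and the Fanconi central pair lie wholly below 0, while the 25 excision repair genes center on -0.02.

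Many of the genes called lower are known to be expressed mainly in S and G2 phase, and genes of proliferation moved with them. All 12 proliferation genes listed, among them MKI67, TOP2A, CCNB1 and CDK1, were called lower with the replicate block, against 9.37% of all genes. Their log2 fold changes had a median of -0.74 and a range from -1.03 to -0.49. The part of proliferation in the repair gene values was not tested. In RNA from whole cultures, fewer cells expressing a gene and less RNA per cell cannot be told apart.

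Counts were made without regard to strand, and reads in exons shared by neighboring genes were assigned to neither. Exons of another gene cover 26.2% of the canonical transcript of RAD54L (LRRC41), 34.2% of XRCC3 (KLC1), 27.4% of FANCA (ZNF276) and 23.2% of EME1 (LRRC59) among the genes called lower. None of these 4 neighbors was called, with log2 fold changes of 0.03, 0.16, 0.28 and 0.21. MDC1, also called lower, shares 10.1% with MDC1-AS1, which was not tested. Among the genes not called, the shares were 65.5% for RAD54B (FSBP), 36.0% for TP53BP1 (TUBGCP4), 27.3% for FANCL (VRK2) and 12.4% for MSH6 (FBXO11). Of these neighbors only TUBGCP4 was called, lower at -0.35. The calls also depend on replicate 3. Without it, 11 of the 43 genes were called lower, all of them among the 27 (edgeR), against 2.84% of all genes. These 11 were BARD1, BRCA1, BRCA2, BRIP1, RAD51C, XRCC2, FANCD2, FANCI, EXO1, EME1 and POLQ.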

How the data were processed

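RNA-seq of 6 C4-2 libraries was used, 3 per group. The deposited values are raw counts per gene symbol. To make them, the authors mapped trimmed first reads to hg19 (TopHat2 2.1.0) and counted exonic reads with HTSeq 0.11.2, unstranded, on gencode v19. The htseq-count tallies stayed out of library sizes and tests.

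From these counts, 523 rRNA symbols were removed, low genes were filtered with filterByExpr (16835 of 55765 kept), and SAL was tested against DMSO with edgeR 4.0.16 (TMM, robust quasi-likelihood test, replicate number as a block, Benjamini-Hochberg adjustment over all genes tested, R 4.3.3). The call threshold was an adjusted p of 0.05. Levels are TMM-scaled CPM, and pair differences use log2 CPM (prior count 2). Standard errors were taken from the fold change and the root of its F statistic. Replicate numbers come from the labels, and same-numbered libraries deviated together from their groups (correlations of 0.89, 0.86 and 0.74 for numbers 1, 2 and 3). The block follows the paired test in the study's methods.

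All 43 genes are named by rule, with values per library for up to 3 called genes of each role by smallest adjusted p (FANCF, ATM, XRCC5 and MUS81 were added after their values were seen). In a companion list, up to 3 genes per direction are named. A gene of the label check is not reported here. The genes and lists were chosen with earlier results of these data known. In simulated data with 200 changed genes, 65.2% of the tested genes lowered by 1 on the log2 scale and 21.3% of those lowered by 0.5 were called. Of the simulated calls, 16.2% were unchanged genes. Genes not called may therefore have changed, and adjusted p-values near the threshold are less certain than stated. In the data themselves 1577 genes were called lower and 1931 higher, so the simulated rates need not hold for the calls here. Transcript lengths and exon overlaps are from GENCODE v44 lifted to GRCh37, the assembly of hg19, and promoters from RefSeq on GRCh38.p14. Alternatives were DESeq2 1.42.0 with the block, DESeq2 size factors, a fit without the block, a minimum of 10 counts per library, no minimum, rRNA genes included, an adjusted p of 0.01 and each replicate number left out.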

Additional observations from a re-analysis of the deposited data

How the results depend on the processing

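Without the replicate block, the number of repair genes called lower was 0, and the companion lists had 0 called lower and 0 higher. Leaving out 1 replicate number at a time gave 11 to 29 repair genes called lower (11 without replicate 3), 5 to 20 companion genes lower (5 without replicate 3) and 1 to 6 higher, while the median log2 fold change of the repair genes lay between -0.52 and -0.49. No repair gene was called higher under any alternative run. The number called lower was 27 with DESeq2 size factors, without a filter, with at least 10 counts in every library and with rRNA genes kept. An adjusted p of 0.01 gave 22. DESeq2 with the block also gave 22, without EME1, FANCG, PMS2, RAD54L and XRCC3. FANCG, PMS2 and XRCC3 were also not called without replicate 2, where PARP1 was, and PALB2 and RAD51B were called without replicate 1. Signs changed only for genes near 0. Leaving out 1 replicate number, XRCC6 ranged from -0.048 (without replicate 2) to 0.064, FANCF from -0.205 to 0.041 (without replicate 3) and MSH6 from -0.067 to 0.034 (without replicate 3). MSH6 was also at 0.0042 without replicate 1, 0.0075 with DESeq2 and the block and 0.0092 without a filter. The cause was not tested. The share of all genes called lower was 9.37% in the main test, 0.0178% without the block and 2.84% without replicate 3. It was 5.23% for DESeq2 with the block, and it was not counted for the other alternatives. For BARD1 the edgeR adjusted p was 1.16e-57 without replicate 1 and 5.0e-56 without a filter, against 2.40e-07 in the main test. Counts under those settings are therefore not directly comparable with the main count. The 6 libraries limit the precision of every value.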
